A study of Mus musculus with 6 samples.

Results

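Chromatin remodellers and histone-modifying enzymes were taken as all probe sets whose single current gene symbol was Chd, Kdm, Kmt, Setd, Smarca or Arid followed by a number, or was Nipbl, Suz12, Ezh2, Eed, Crebbp, Ep300, Ankrd11 or Nsd1. This gave 185 of the 45101 probe sets on the chip, for 65 genes. Of them 124, for 64 genes, had a group mean of 100 or higher in any of the 3 groups, and Kdm4d was the only gene left without a probe set. Ash1l, also on the list, had 0 probe sets that carried its symbol alone and was not analysed here. The members were named by symbol, but the list was chosen with earlier results of these data known. Shares over all tested probe sets are therefore given beside the counts as a description only.

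The data came from hippocampi of male Tg2576 mice on a C57BL/6 background, a line whose transgene (APPSwe) places the human amyloid precursor protein, in its Swedish mutant form, under the prion protein promoter. All groups carried this transgene, and no mice without it were profiled. The 3 groups were 18 month-old mice that for the last 6 months drank captopril, which inhibits angiotensin-converting enzyme (ACE), in their water at a daily 20 mg per kg (Tg-18mo-ACEI), 18 month-old mice given plain water (Tg-18mo), and 12 month-old untreated mice (Tg-12mo), the age at which captopril was started. Each group was measured on 2 Affymetrix chips, each with RNA pooled from 4 mice. Whether the chips of a group carried different pools is not stated, so the p-values rest on chip-to-chip spread, which may be only technical. In bulk tissue, fewer cells of a type and less RNA per cell cannot be told apart.

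DNA in the nucleus is wound around histones, and access to it is set by remodellers, which use ATP to move or evict nucleosomes, and by enzymes that write or erase methyl and acetyl groups on histone tails. Lysine methyltransferases (the KMT and SETD families and Ezh2) write methyl groups, lysine demethylases (KDM) remove them, and Crebbp and Ep300 write acetyl groups. In the hippocampus these proteins are known for activity-dependent transcription and memory formation, and mutations in many of them cause intellectual disability in humans.

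Promoters of this family are typically rich in CpG. Of the 64 genes, 47 had a promoter sequence in the RefSeq table (build GRCm38.p6), with a median of 23 CpG in the 250 bases before the start, against 6 over all 27025 genes. The GC box GGGCGG, read on both strands, was found in 68.1% of these 47 promoters and in 35.4% of all promoters. CCAAT was in 42.6% of the 47, close to 37.5% of all, and TATAAA was in 4.26% of the 47 against 14.3% of all. CACGTG, the E-box, was in 4.26% of the 47 and 6.86% of all. The NRF1 and YY1 motifs, each searched as 1 fixed string on both strands, were in 0 of the 47, and in 0.877% and 0.359% of all. The 150 bases before the start are shown for 4 genes that recur below, with CCAAT and GGGCGG matches in capitals, on either strand. For Suz12 and Kmt2c every kept probe set rose with captopril, and for Chd5 and Chd8 the only kept probe set fell. The windows are chr11:79992956-79993105 on the plus strand for Suz12, chr5:25498784-25498933 on the minus strand for Kmt2c, chr4:152338501-152338650 on the plus strand for Chd5, which has 2 entries, and chr14:52257761-52257910 on the minus strand for Chd8.
Suz12: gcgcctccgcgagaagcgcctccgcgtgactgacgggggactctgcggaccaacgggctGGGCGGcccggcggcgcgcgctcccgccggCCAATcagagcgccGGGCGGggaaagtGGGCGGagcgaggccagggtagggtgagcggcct
Kmt2c: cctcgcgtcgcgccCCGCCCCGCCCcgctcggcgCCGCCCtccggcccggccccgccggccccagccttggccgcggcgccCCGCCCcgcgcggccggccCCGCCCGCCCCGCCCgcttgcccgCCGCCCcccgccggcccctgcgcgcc
Chd5: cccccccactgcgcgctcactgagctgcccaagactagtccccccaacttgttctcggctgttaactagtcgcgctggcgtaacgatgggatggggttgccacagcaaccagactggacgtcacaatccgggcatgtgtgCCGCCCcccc
Chd8: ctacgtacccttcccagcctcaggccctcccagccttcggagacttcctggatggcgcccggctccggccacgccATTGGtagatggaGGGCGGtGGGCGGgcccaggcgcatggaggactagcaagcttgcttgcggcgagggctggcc
Suz12 and Kmt2c carried 23 and 32 CpG in these windows, against 10 in Chd5 and 11 in Chd8. GGGCGG matched 8 times in Kmt2c, 3 times in Suz12, 2 times in Chd8 and 1 time in Chd5, with overlapping matches counted apart. These matches are letters in a window and were not tested against the signals.

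Several chip controls differed between the groups. For β-actin the ratio of 3′ to 5′ signal, which falls when the 5′ end of the transcript is better represented, was 1.45 and 1.38 in Tg-18mo-ACEI, 1.98 and 1.88 in Tg-18mo and 1.83 and 1.77 in Tg-12mo. The ratio for Gapdh lay between 0.828 and 0.862 on all 6 chips. The 18S ribosomal RNA probe set read 2214 and 2000 in Tg-18mo-ACEI, 10219 and 11144 in Tg-18mo, and 2125 and 2121 in Tg-12mo. Signals of the spiked poly-A controls averaged 344 and 350 in Tg-18mo-ACEI, 155 and 150 in Tg-18mo and 1017 and 1028 in Tg-12mo. The trimmed mean signal was 600 on every chip. Over the 124 probe sets, log2 signals of the chips of a group correlated at 0.976 to 0.993, and those from different groups at 0.869 to 0.961. Over all tested probe sets these ranges were 0.987 to 0.992 and 0.958 to 0.965. Dentate granule markers (Prox1, C1ql2, Dsp, Tdo2 and Lct) had a lowest gene signal of 139 on any chip. This alone does not bear out the hippocampal label, because some markers listed for other regions also read above it. Striatal Ppp1r1b read 557 to 1445 and cerebellar Zic1 read 2464 to 4782 over the 6 chips. Markers of other cell types moved too, in the limma fit. Of 7 choroid plexus markers 6 were lower in Tg-18mo-ACEI than in Tg-18mo, with a list median log2 difference of -2.57 and a lowest gene signal of 27.1. Folr1, for instance, read 253 and 224 in Tg-18mo-ACEI, 1215 and 1361 in Tg-18mo, and 1383 and 1239 in Tg-12mo. The seventh, Ttr, read 20358 and 18370 in Tg-18mo-ACEI, 17548 and 19806 in Tg-18mo, and 36598 and 36156 in Tg-12mo, and made up most of the summed signal of 20016 to 21987, 25573 to 27992 and 43423 to 43579 in these groups. With captopril, 4 of 6 meningeal, 4 of 5 interneuron, 3 of 5 oligodendrocyte, 2 of 4 striatal and 2 of 7 neuronal markers were lower, and 3 of 5 cerebellar granule cell markers were higher and 1 lower. Astrocyte markers had 3 higher and 2 lower of 6 and microglial ones 2 and 2 of 6, while 12.6% of all genes were higher and 21.7% lower on their brightest probe sets. Of the dentate granule markers Prox1 was higher by 1.57 ± 0.17 on the log2 scale (adjusted p = 2.9e-04) and Dsp lower. The lowest signals were 7.12 for a meningeal and 1.67 for a cerebellar gene. The β-actin ratio, the 18S signal and these markers therefore move with the groups, and their part in the results below was not tested.

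With captopril, the chromatin genes named by the rule were more often higher than lower relative to untreated mice of the same age. This was not so for the chromatin genes outside the rule. Suz12, a core subunit of Polycomb repressive complex 2, Chd4, the ATPase of the NuRD deacetylase complex, and the SWI/SNF ATPase Smarca2 rose on every kept probe set, and the cohesin loader Nipbl, the acetyltransferase Crebbp and the demethylases Kdm5a and Kdm6a rose strongly on at least 1 probe set each. Chd3, Chd5, Chd8 and Kmt2b fell. In Tg-18mo-ACEI against Tg-18mo, 44 of the 124 probe sets were higher and 11 lower at an adjusted p under 0.05 (limma, Benjamini-Hochberg over all 23262 tested probe sets), or 35.5% and 8.87%, whereas 15.9% and 17.7% of all tested probe sets were higher and lower. Members with a dim group can pass the minimum through the group in which they are high, and 15 of the 124 had at least 1 group mean under 100. With no minimum, 39 of all 185 probe sets were higher and 8 lower (21.1% and 4.32%), against 7.08% and 7.42% of the 45037 probe sets in that fit. These shares have unlike bases, because the minimum was reached by 124 of the 185 but only 23262 of the 45037. Of the 61 members below it, 0 were called, so this count recounts the same 124. The 11 lower calls became 6 or 7 without either Tg-18mo-ACEI chip or without chip 2 of Tg-18mo. The median log2 difference was 0.16 over the 124 and -0.04 over all tested probe sets. Of 120 chromatin genes outside the naming rule, 13.3% were higher and 18.3% lower on brightest probe sets, against 12.6% and 21.7% of all genes.

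Higher calls also outnumbered lower ones when every gene was represented once. On the brightest probe set of each of the 64 genes, 20 were higher and 8 lower (31.2% and 12.5%), against 12.6% and 21.7% over all genes. These counts were 11 and 5 without chip 2 of Tg-18mo-ACEI and 12 and 5 without chip 2 of Tg-18mo. The median log2 difference was 0.05 for these 64 and 0.29 for the other 60 probe sets of the same genes. At the thresholds of the study, an unadjusted p of 0.01 or less and a 2-fold difference, 19 of the 124 probe sets were higher and 1 lower, while 3.03% and 1.06% of all tested probe sets passed. On brightest probe sets 2 of the 64 genes were higher at these thresholds. The share over all genes on brightest probe sets at these thresholds is not given here, so this count has no background beside it. Both Tg-18mo-ACEI chips lay above both Tg-18mo chips for 69 of the 124 and below both for 33 (55.6% and 26.6%), against 31.1% and 40.3% of all. Among members with a mean signal of 1000 or more, 19 of 40 were higher and 6 lower (all tested probe sets of that class, 20.4% and 24.9%).

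**Figure D1:**
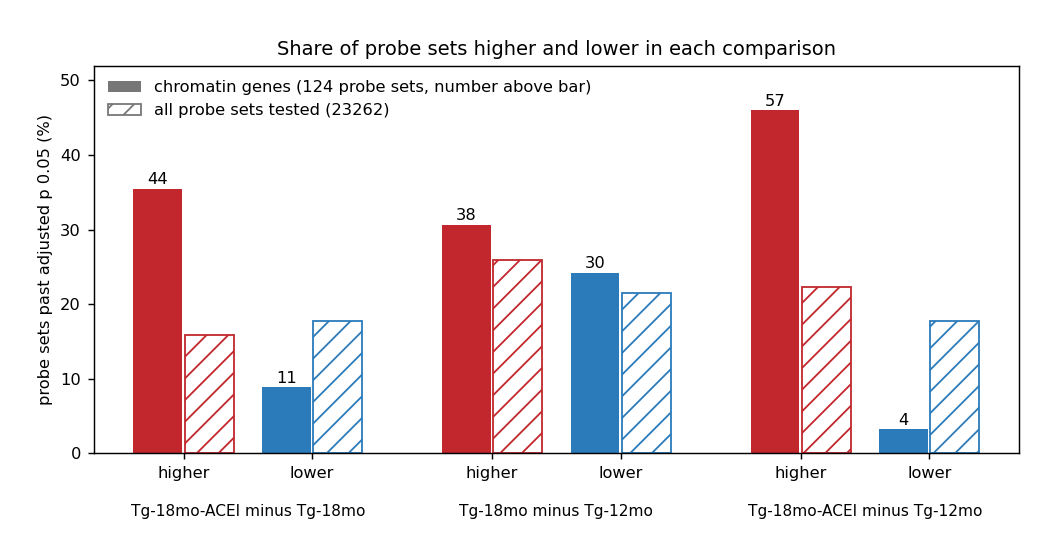
Bars give the percent of probe sets higher (red) or lower (blue) at an adjusted p under 0.05 in each of the 3 comparisons, filled for the 124 chromatin probe sets (their number above the bar) and hatched for all 23262 tested. With captopril against untreated 18 month-old mice, 44 were higher and 11 lower, and the filled bars stand above the hatched ones for higher and below them for lower.

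Age gave a different split. Untreated mice of 18 months and of 12 months differed in 68 of the 124 probe sets, in both directions. Kdm4a, Arid1a and Kmt2d were higher at 18 months on every kept probe set, and Suz12 was lower on every one. Kmt2e was lower on 3 of 4 and Kdm6b on 1 of 2, and Nipbl was lower on its brightest and higher on another. In Tg-18mo against Tg-12mo, 38 were higher and 30 lower (30.6% and 24.2%), and over all tested probe sets the shares were 25.9% and 21.5%. By this count over all probe sets, the members lay near the background. The median log2 difference was 0.10 over the 124 and 0.05 over all, and 0.04 over the members without chip 2 of Tg-12mo. With no minimum, 35 and 29 of the 185 passed (18.9% and 15.7%), against 12.2% and 10.2%. Members reached the minimum more often than all probe sets, so these shares have unlike bases and show no surplus by themselves. Of the 61 members below the minimum, 1 was higher and 3 lower. On brightest probe sets 27 genes were higher and 10 lower (42.2% and 15.6%), against 28% and 21% over all genes. With 1 probe set per gene, higher calls were thus in surplus. Chips did not overlap for 60 higher and 37 lower members (48.4% and 29.8%), against 40.9% and 33.6% of all. The study's thresholds left 3 higher and 2 lower, against 2.57% and 1.78% of all.

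Captopril-treated mice of 18 months were also set against the 12 month-old mice. Several members were higher than at the age when treatment began. Setd7, Chd4 and Suz12 were higher on every kept probe set, Crebbp on 3 of 4 and Smarca2 on 1 of 2. In Tg-18mo-ACEI against Tg-12mo, 57 of the 124 were higher and 4 lower (46% and 3.23%), against 22.3% and 17.7% of all tested probe sets. The 4 lower probe sets were those of Chd1 (1457473_at), Kmt2e (1439108_at), Setd5 (1439515_at) and Kdm6b (1456610_at). Their number was 1 without chip 2 of Tg-18mo-ACEI or chip 1 of Tg-12mo, and 2 without chip 2 of Tg-12mo. With no minimum, 49 and 3 of 185 passed (26.5% and 1.62%), against 10.2% and 8.3%, again on unlike bases. On brightest probe sets 30 genes were higher and 2 lower (46.9% and 3.12%), against 20.1% and 20.6%. The 2 lower genes became 1 or 0 when a Tg-18mo-ACEI or Tg-12mo chip was left out (limma, with 2 at an unadjusted p under 0.05 when all chips were used). The median log2 difference was 0.28 over the 124 and 0.05 over all. Both Tg-18mo-ACEI chips were above both Tg-12mo chips for 80 members and below for 12, against 39.6% and 31.4% of all. The study's thresholds left 6 higher, against 2.05% of all. Each pair of comparisons shares a group of chips, so they are given side by side and their likeness was not tested.

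The order of the 3 group means describes the members in another way. Shares of these orders and call patterns over all tested probe sets are not given here. Whether any of them is particular to the members was not tested. The mean was highest in Tg-18mo-ACEI and lowest in Tg-18mo for 41 of the 124 probe sets, highest in Tg-18mo and lowest in Tg-12mo for 33, and followed Tg-18mo-ACEI over Tg-18mo over Tg-12mo for 29. By calls, 16 probe sets of 11 genes were higher with captopril, lower at 18 months than at 12, and higher with captopril than at 12 months. They were probe sets of Ankrd11, Chd4, Crebbp, Kdm5a, Kdm5b, Kdm6a, Kmt2c, Nipbl, Smarca4, Smarca5 and Suz12, and 12 of the 16 were not the brightest of their gene. Not all these calls were firm. With no intensity trend in the fit, Ankrd11 1456110_at, Chd4 1438476_a_at, Crebbp 1436983_at and Kdm5a 1437106_at each lost a call against Tg-12mo. Another 20 were higher in both Tg-18mo-ACEI and Tg-18mo than in Tg-12mo without a call between the 18 month-old groups, among them Setd2, Kmt2d, Kdm4b and the bright Smarca4 probe set. Chd3, Chd5, Chd8, Kdm2a, Kmt2a and Kmt2b each had 1 probe set that was lower with captopril, higher at 18 than at 12 months and not different by the test between Tg-18mo-ACEI and Tg-12mo. The Kdm2a call with captopril (1455942_at, -0.27 on the log2 scale) was lost in 8 alternatives, among them leaving out each chip compared. Arid1b, Chd4, Kdm7a and Setd7 each had 1 probe set that was higher in all 3 comparisons. No comparison was passed by 37 probe sets.

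**Figure D2:**
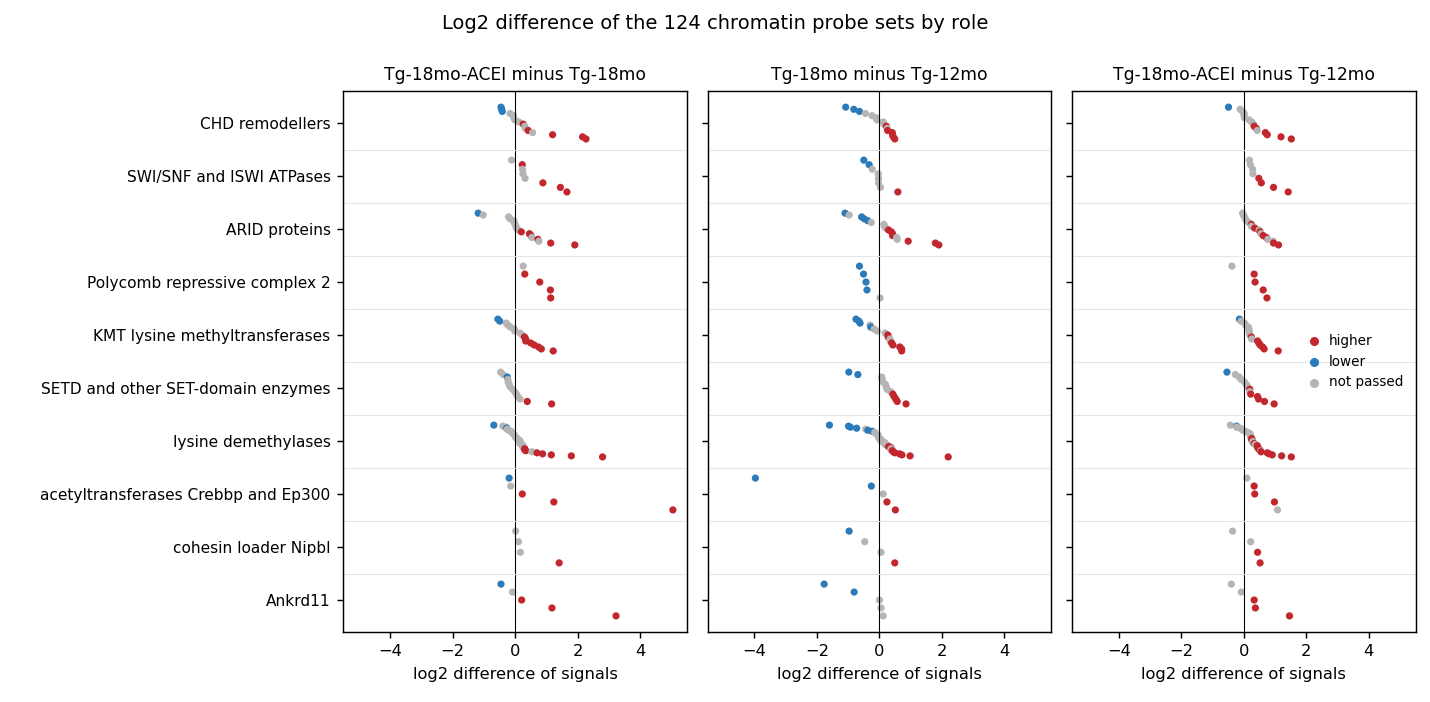
Each point is 1 of the 124 probe sets, placed by its log2 difference of signals (horizontal axis, 1 panel per comparison) within its role (rows), red where higher, blue where lower and grey where the test was not passed. Red points outnumber blue ones in each of the 10 roles in both captopril panels, while the panel for Tg-18mo minus Tg-12mo has both colours in all roles but Polycomb repressive complex 2 and Ankrd11.

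Remodelling ATPases came first among the roles. Most CHD proteins use a chromodomain to bind chromatin and ATP to slide nucleosomes. Of 16 CHD probe sets, 5 were higher and 3 lower with captopril, 6 were higher and 3 lower at 18 against 12 months, and 6 were higher and 1 lower in Tg-18mo-ACEI against Tg-12mo. The shares were 31.2% and 18.8%, 37.5% and 18.8%, and 37.5% and 6.25%, to be read against 15.9% and 17.7%, 25.9% and 21.5%, and 22.3% and 17.7% of all tested probe sets. Chd4 stood out. Its probe set 1436343_at read 558 and 507 in Tg-18mo-ACEI, 122 and 116 in Tg-18mo, and 194 and 178 in Tg-12mo. The treated chips were above all others by a wide margin, and the untreated 18 month-old chips were the lowest, with log2 differences of 2.16 ± 0.14 (SE, adjusted p = 1.8e-05) with captopril and -0.64 ± 0.14 (adjusted p = 0.0054) between Tg-18mo and Tg-12mo. The brightest Chd4 probe set, 1451295_a_at, read 1116 and 1018 in Tg-18mo-ACEI, 807 and 783 in Tg-18mo and 620 and 707 in Tg-12mo. It had a smaller difference with captopril of 0.42 ± 0.09 (adjusted p = 0.0068, and 0.053 without chip 1 of Tg-18mo-ACEI), and its order of the untreated groups was the reverse. Another, dim one (1438476_a_at) read 250 and 200 in Tg-18mo-ACEI, 30.1 and 71.4 in Tg-18mo, and 98 and 98.5 in Tg-12mo. It was higher with captopril by 2.27 ± 0.38 (adjusted p = 0.0028), or 1.67 with 32 added to each signal. Only the Tg-18mo-ACEI mean of this dim probe set reached the signal minimum. The filter thus favoured its higher direction with captopril, which is not counted as support.

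Chd3 and Chd5 can take the place of Chd4 in NuRD, and Chd5 is known from neurons. Chd3 was bright, at 4825 and 4665 in Tg-18mo-ACEI, 6330 and 6479 in Tg-18mo, and 4543 and 4876 in Tg-12mo. Treated and young chips overlapped, and the untreated 18 month-old chips were the highest, so that captopril gave -0.43 ± 0.05 (adjusted p = 4.5e-04) and Tg-18mo minus Tg-12mo gave 0.44 ± 0.05 (adjusted p = 2.0e-04). Chd5 followed the same course, with 2127 and 2118 in Tg-18mo-ACEI, 2699 and 2943 in Tg-18mo and 2145 and 2069 in Tg-12mo, and a difference with captopril of -0.41 ± 0.06 (adjusted p = 0.0011). Chd8, a remodeller linked to autism in humans, read 1123 and 1070 in Tg-18mo-ACEI, 1431 and 1565 in Tg-18mo, and 1168 and 1083 in Tg-12mo. Only the Tg-18mo chips stood apart, and the difference with captopril was -0.45 ± 0.07 (adjusted p = 0.0021). The NuRD ATPases thus went in opposite directions with captopril in this fit, Chd4 higher and Chd3 and Chd5 lower. Chd1, which binds the methyl mark of active promoters, was lower at 18 than at 12 months on 1 of its 3 probe sets (1457473_at), with 239 and 217 in Tg-18mo against 432 and 373 in Tg-12mo (-0.82 ± 0.13, adjusted p = 0.0011). The other 2 did not pass, with -0.08 ± 0.16 (1431166_at, adjusted p = 0.73) and 0.12 ± 0.27 (1420990_at, adjusted p = 0.74).

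The SMARCA proteins are the ATPases of SWI/SNF (Smarca2 and Smarca4) and ISWI (Smarca1 and Smarca5) remodellers. Of their 8 probe sets, 4 rose with captopril (50%, against 15.9% of all tested), with a median log2 difference of 0.28. At 18 against 12 months 1 was higher and 2 lower (12.5% and 25%, against 25.9% and 21.5% of all). Smarca2 (1452333_at) read 1077 and 1184 in Tg-18mo-ACEI, 340 and 376 in Tg-18mo, and 399 and 444 in Tg-12mo. The treated chips were far above all the untreated ones, at 1.66 ± 0.10 over Tg-18mo (adjusted p = 1.2e-05, 3.16-fold) and 1.42 ± 0.10 over Tg-12mo (adjusted p = 2.9e-05). The brightest Smarca2 probe set gave 2413 and 2381 in Tg-18mo-ACEI, 2220 and 1895 in Tg-18mo and 2158 and 2073 in Tg-12mo, a far smaller difference of 0.23 ± 0.07 (adjusted p = 0.048).

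Smarca4 and Smarca5 showed the same contrast between probe sets. Smarca4 (1426805_at) read 1169 and 1138 in Tg-18mo-ACEI, 652 and 595 in Tg-18mo, and 761 and 806 in Tg-12mo, with 0.89 ± 0.08 with captopril (adjusted p = 8.4e-05). The bright 1426804_at read 4281 and 4277 in Tg-18mo-ACEI, 4694 and 4562 in Tg-18mo and 3086 and 3068 in Tg-12mo. Here the 18 month-old groups lay close (-0.11 ± 0.04, adjusted p = 0.082) and both were above Tg-12mo, with 0.59 ± 0.04 for Tg-18mo minus Tg-12mo (adjusted p = 3.0e-05). In that comparison the dimmer probe set went the other way, at -0.33 ± 0.08 (adjusted p = 0.0074, and 0.058 without chip 2 of Tg-18mo). Smarca5 (1424207_at) read 737 and 649 in Tg-18mo-ACEI, 270 and 238 in Tg-18mo and 357 and 360 in Tg-12mo. Its difference with captopril was 1.45 ± 0.11 (adjusted p = 4.9e-05), while 2 brighter Smarca5 probe sets had 0.25 ± 0.11 (adjusted p = 0.11) and 0.32 ± 0.14 (adjusted p = 0.12).

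ARID proteins bind DNA and serve in SWI/SNF (Arid1a, Arid1b and Arid2) or deacetylase complexes (Arid4a and Arid4b). Of 18 probe sets, 6 were higher and 1 lower with captopril, 7 and 4 at 18 against 12 months, and 7 were higher in Tg-18mo-ACEI than in Tg-12mo. With captopril these were 33.3% and 5.56% (15.9% and 17.7% of all tested), and with age 38.9% and 22.2% (25.9% and 21.5% of all). In the last comparison 38.9% were higher (22.3% of all). The 1 lower was the largest fall among all 124, Arid1a (1417440_at). It read 894 and 894 in Tg-18mo-ACEI, 2070 and 1988 in Tg-18mo, and 568 and 518 in Tg-12mo. No groups overlapped, and Tg-18mo was far above the rest, with -1.18 ± 0.07 with captopril (adjusted p = 1.1e-05) and 1.90 ± 0.07 for Tg-18mo minus Tg-12mo (adjusted p = 2.2e-06). The brighter Arid1a probe set (1448709_at) read 2995 and 2902 in Tg-18mo-ACEI, 3040 and 2982 in Tg-18mo, and 2255 and 2388 in Tg-12mo. It gave -0.03 ± 0.05 with captopril (adjusted p = 0.68) and 0.38 ± 0.05 between Tg-18mo and Tg-12mo (adjusted p = 5.2e-04). Arid4a (1436191_at) rose with captopril by 0.73 ± 0.11 (adjusted p = 0.0013), with 693 and 768 in Tg-18mo-ACEI, 418 and 464 in Tg-18mo and 703 and 606 in Tg-12mo, which put treated and young chips in the same range. Arid5b (1420973_at), a dim probe set, had a like course, with 187 and 198 in Tg-18mo-ACEI, 95.6 and 79.5 in Tg-18mo and 200 and 174 in Tg-12mo (1.14 ± 0.19 with captopril, adjusted p = 0.0026). The brightest Arid5b probe set (1434283_at) read 1220 and 1143 in Tg-18mo-ACEI, 1281 and 1452 in Tg-18mo, and 1225 and 1212 in Tg-12mo. It did not pass with captopril (-0.21 ± 0.07, adjusted p = 0.063).

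Polycomb repressive complex 2 writes the methyl mark of silenced developmental genes: Ezh2 is the enzyme, Eed reads the mark, and Suz12 holds the complex together. Of its 5 probe sets, 4 rose with captopril (80%, against 15.9% of all tested) and 4 were lower at 18 than at 12 months (80%, against 21.5% of all), 3 of them each time of Suz12. Suz12 rose on all 3 of its probe sets. The largest change was on 1427253_s_at, with 1353 and 1375 in Tg-18mo-ACEI, 623 and 618 in Tg-18mo, and 834 and 800 in Tg-12mo. The groups did not overlap and the treated chips were the highest, with 1.14 ± 0.07 over Tg-18mo (adjusted p = 9.2e-06) and 0.74 ± 0.07 over Tg-12mo (adjusted p = 7.5e-05). The brightest, 1420021_s_at, read 1518 and 1543 in Tg-18mo-ACEI, 917 and 855 in Tg-18mo, and 1162 and 1221 in Tg-12mo (0.79 ± 0.06 with captopril, adjusted p = 6.4e-05). The third, 1452364_at, had 752 and 760 in Tg-18mo-ACEI, 380 and 315 in Tg-18mo and 444 and 544 in Tg-12mo (1.13 ± 0.13, adjusted p = 3.7e-04). All 3 had the same order of groups. Tg-18mo was below Tg-12mo by 0.40 to 0.51 on the log2 scale, although on 1452364_at this call was lost without chip 2 of Tg-18mo (adjusted p = 0.078) or chip 2 of Tg-12mo (adjusted p = 0.06). Probe sets with an s in their suffix can also bind related transcripts.

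The other subunits of the complex changed less. Eed read 1033 and 1056 in Tg-18mo-ACEI, 826 and 857 in Tg-18mo and 844 and 813 in Tg-12mo. The treated chips were above both untreated groups, which overlapped, with 0.31 ± 0.07 over Tg-18mo (adjusted p = 0.0076, and 0.054 without chip 2 of Tg-18mo-ACEI or 0.053 without chip 1 of Tg-18mo). The catalytic subunit Ezh2 was dim, with 120 and 110 in Tg-18mo-ACEI, 112 and 82.5 in Tg-18mo, and 151 and 149 in Tg-12mo. Its difference with captopril was 0.26 ± 0.23 (adjusted p = 0.41). It was lower in Tg-18mo than in Tg-12mo (-0.64 ± 0.23, adjusted p = 0.046), a call lost in 8 alternatives, with an adjusted p of up to 0.25 without chip 2 of Tg-18mo.

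**Figure D3:**
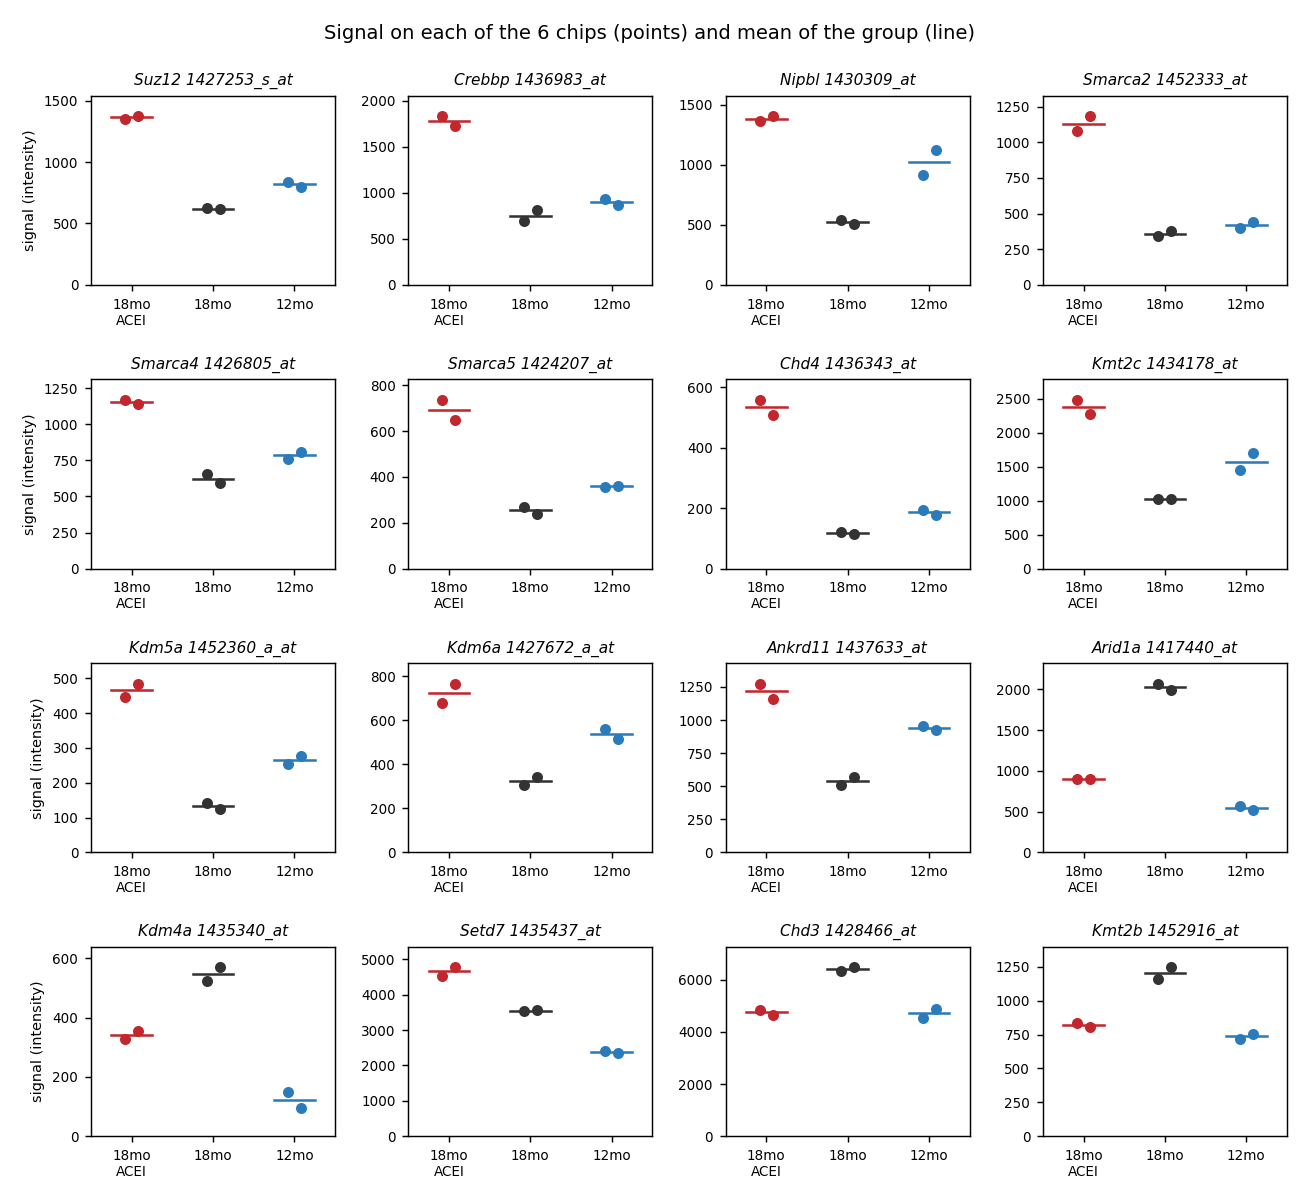
Each panel plots the signal (intensity) of 1 probe set on the 6 chips, the one with the lowest adjusted p with captopril for its gene, with Tg-18mo-ACEI in red, Tg-18mo in black and Tg-12mo in blue, and a line at the mean of the 2 chips. In the first 11 panels the treated chips are highest and the Tg-18mo chips lowest, whereas in Arid1a, Kdm4a, Chd3 and Kmt2b the Tg-18mo chips are highest.

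Of the KMT enzymes, Kmt2a to Kmt2d methylate histone H3 at promoters and enhancers, Kmt2e binds such marks, and Kmt5a to Kmt5c methylate histone H4. Of 17 probe sets, 8 were higher and 2 lower with captopril, 7 and 4 at 18 against 12 months, and 7 and 1 in Tg-18mo-ACEI against Tg-12mo. With captopril these were 47.1% and 11.8% (15.9% and 17.7% of all tested), and with age 41.2% and 23.5% (25.9% and 21.5% of all). In the last comparison they were 41.2% and 5.88% (22.3% and 17.7% of all). The 8 higher ones were 4 of Kmt2c and 4 of Kmt2e, and the 2 lower ones were of Kmt2a and Kmt2b. Kmt2c (1434178_at) read 2482 and 2274 in Tg-18mo-ACEI, 1019 and 1026 in Tg-18mo, and 1447 and 1699 in Tg-12mo. The groups did not overlap, and captopril gave 1.22 ± 0.08 (adjusted p = 2.5e-05). The other 3 Kmt2c probe sets rose by 0.34 to 0.75. For the smallest of these signals, 1457193_at (256 and 241 in Tg-18mo-ACEI, 149 and 146 in Tg-18mo), the call was lost without either Tg-18mo-ACEI chip or chip 2 of Tg-18mo (adjusted p of 0.05 to 0.065).

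Kmt2e and Kmt2b moved apart. Kmt2e (1439107_a_at) read 1835 and 1953 in Tg-18mo-ACEI, 1121 and 999 in Tg-18mo and 1698 and 1643 in Tg-12mo, so that untreated 18 month-old mice were low and the other 2 groups close, with 0.84 ± 0.07 with captopril (adjusted p = 7.7e-05) and -0.66 ± 0.07 for Tg-18mo minus Tg-12mo (adjusted p = 1.5e-04). Kmt2b read 833 and 805 in Tg-18mo-ACEI, 1159 and 1246 in Tg-18mo, and 719 and 753 in Tg-12mo, the opposite course. It fell with captopril by 0.55 ± 0.07 on the log2 scale (adjusted p = 6.9e-04). Kmt2a was split between its probe sets. On 1427283_at it read 857 and 782 in Tg-18mo-ACEI, 1106 and 1195 in Tg-18mo, and 651 and 820 in Tg-12mo (-0.49 ± 0.11 with captopril, adjusted p = 0.011). This call was lost without chip 2 of Tg-18mo-ACEI (adjusted p = 0.077) or of Tg-18mo (adjusted p = 0.074), and 1452377_at had 0.23 ± 0.08 (adjusted p = 0.053). Kmt2d was higher at 18 than at 12 months, with 1631 and 1483 in Tg-18mo against 1007 and 903 in Tg-12mo (0.71 ± 0.08, adjusted p = 1.7e-04), and 1367 and 1290 in Tg-18mo-ACEI.

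Among the SETD enzymes and Nsd1, 2 of 14 probe sets were higher and 1 lower with captopril (14.3% and 7.14%, against 15.9% and 17.7% of all tested), with a median log2 difference of -0.12, the lowest of the 10 roles. Setd7, which methylates histone H3 and other proteins, was bright and ordered by group: 4536 and 4774 in Tg-18mo-ACEI, 3531 and 3553 in Tg-18mo, and 2416 and 2347 in Tg-12mo. Each step was larger than the spread between chips, with 0.39 ± 0.05 with captopril (adjusted p = 5.9e-04), 0.57 ± 0.05 for Tg-18mo minus Tg-12mo (adjusted p = 4.9e-05) and 0.97 ± 0.05 for Tg-18mo-ACEI minus Tg-12mo (adjusted p = 8.9e-06). Setd3, known as a methyltransferase of actin, was highest in Tg-18mo, with 2897 and 2876 in Tg-18mo-ACEI, 3532 and 3354 in Tg-18mo and 2441 and 2529 in Tg-12mo (-0.25 ± 0.05 with captopril, adjusted p = 0.0058). Nsd1 differed little between groups on its bright probe set (1823 and 1704 in Tg-18mo-ACEI, 1691 and 1637 in Tg-18mo, 1492 and 1591 in Tg-12mo). There it was higher in Tg-18mo-ACEI than in Tg-12mo by 0.19 on the log2 scale, a call lost in 9 alternatives. On 1440972_at it read 191 and 216 in Tg-18mo-ACEI, 92.5 and 87.8 in Tg-18mo and 213 and 149 in Tg-12mo (1.17 ± 0.22 with captopril, adjusted p = 0.0042).

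Setd5 gave opposite calls for age on its 2 probe sets. On 1437206_at the signals were 579 and 611 in Tg-18mo-ACEI, 676 and 683 in Tg-18mo, and 365 and 387 in Tg-12mo. On 1439515_at they were 451 and 429 in Tg-18mo-ACEI, 427 and 366 in Tg-18mo, and 658 and 618 in Tg-12mo. The 12 month-old chips were thus lowest on the brighter and highest on the other. Tg-18mo minus Tg-12mo was 0.85 ± 0.08 (adjusted p = 9.9e-05) and -0.69 ± 0.10 (adjusted p = 8.7e-04), and captopril gave no call on either (adjusted p = 0.11 and 0.28).

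Lysine demethylases made the largest group, with 32 probe sets of 17 genes. With captopril 8 were higher and 2 lower, at 18 against 12 months 9 and 6, and in Tg-18mo-ACEI against Tg-12mo 15 and 1. With captopril these were 25% and 6.25% (15.9% and 17.7% of all tested). With age they were 28.1% and 18.8%, close to 25.9% and 21.5% of all, and in the last comparison 46.9% and 3.12% (22.3% and 17.7% of all). Kdm5 enzymes erase the methyl mark of active promoters. Kdm5a (1452360_a_at) read 445 and 485 in Tg-18mo-ACEI, 142 and 125 in Tg-18mo, and 253 and 277 in Tg-12mo. The groups did not overlap, and captopril gave 1.80 ± 0.14 (adjusted p = 4.3e-05, 3.49-fold). A dim Kdm5a probe set (1437106_at) read 159 and 224 in Tg-18mo-ACEI, 19.1 and 38.4 in Tg-18mo, and 77.2 and 87 in Tg-12mo. It gave 2.80 ± 0.38 (adjusted p = 0.001) and 1.88 with 32 added (adjusted p = 4.8e-04), so that its fold depends on the treatment of low signals. Only its Tg-18mo-ACEI mean reached the signal minimum. The filter thus favoured its higher direction with captopril, which is not counted as support. The brightest Kdm5a probe set differed by only 0.16 ± 0.10 (adjusted p = 0.27). Kdm5b (1427143_at) read 1484 and 1417 in Tg-18mo-ACEI, 786 and 785 in Tg-18mo, and 994 and 1041 in Tg-12mo (0.88 ± 0.06, adjusted p = 3.1e-05). A second Kdm5b probe set, 1427142_s_at, had -0.20 ± 0.14 (adjusted p = 0.32).

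Kdm6a and Kdm6b erase the Polycomb mark. Kdm6a (1427672_a_at) read 681 and 768 in Tg-18mo-ACEI, 307 and 342 in Tg-18mo and 559 and 517 in Tg-12mo, with 1.16 ± 0.10 with captopril (adjusted p = 1.1e-04). Kdm6b (1456610_at) read 1249 and 1143 in Tg-18mo-ACEI, 756 and 715 in Tg-18mo, and 1383 and 1414 in Tg-12mo. For both, untreated 18 month-old chips were the lowest, and for Kdm6b the treated chips did not reach the young ones. Captopril gave 0.70 ± 0.07 for Kdm6b (adjusted p = 1.9e-04), and Tg-18mo minus Tg-12mo gave -0.93 ± 0.07 (adjusted p = 3.0e-05). These were the brighter of 2 probe sets of each gene. The other did not pass with captopril, with 0.27 ± 0.13 for Kdm6a (1427235_at, adjusted p = 0.15) and 0.00 ± 0.22 for Kdm6b (1447612_x_at, adjusted p = 0.99).

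Kdm4a, Kdm4b and Kdm7a, demethylases of repressive marks, were higher at 18 than at 12 months, Kdm7a on 2 of its 3 probe sets. Kdm4a read 329 and 354 in Tg-18mo-ACEI, 524 and 570 in Tg-18mo, and 148 and 96.1 in Tg-12mo. No groups overlapped. Tg-18mo was above Tg-12mo by 2.20 ± 0.19 (adjusted p = 5.8e-05, 4.59-fold), the largest rise with age among the 124, and captopril gave -0.68 ± 0.19 (adjusted p = 0.028), a call lost when any of the 4 chips compared was left out (adjusted p of 0.079 to 0.14). Kdm4b read 571 and 589 in Tg-18mo-ACEI, 687 and 691 in Tg-18mo, and 380 and 461 in Tg-12mo (0.72 ± 0.10 for Tg-18mo minus Tg-12mo, adjusted p = 7.3e-04). Kdm7a (1435867_at) read 1275 and 1255 in Tg-18mo-ACEI, 1366 and 1288 in Tg-18mo, and 634 and 714 in Tg-12mo. Both 18 month-old groups were far above the young one, with 0.98 ± 0.08 for Tg-18mo minus Tg-12mo (adjusted p = 3.3e-05). Kdm1a, the brightest demethylase, lay between 3203 and 3654 on all 6 chips, with 0.02 ± 0.05 with captopril (adjusted p = 0.8).

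Crebbp and Ep300 are paralogous acetyltransferases, and Crebbp is the coactivator of the memory-related factor CREB. Crebbp (1436983_at) read 1835 and 1724 in Tg-18mo-ACEI, 695 and 812 in Tg-18mo, and 936 and 869 in Tg-12mo. The treated chips were above all untreated chips, at 1.24 ± 0.09 over Tg-18mo (adjusted p = 2.9e-05, 2.37-fold) and 0.98 ± 0.09 over Tg-12mo (adjusted p = 7.9e-05). The brightest, 1435224_at, read 2401 and 2298 in Tg-18mo-ACEI, 2053 and 1965 in Tg-18mo and 1826 and 1869 in Tg-12mo, with only 0.23 ± 0.05 over Tg-18mo (adjusted p = 0.013, and 0.078 without chip 1 of Tg-18mo-ACEI or 0.092 without chip 2 of Tg-18mo). Another (1434633_at) read 1608 and 1650 in Tg-18mo-ACEI, 1907 and 1804 in Tg-18mo, and 1258 and 1341 in Tg-12mo. It was lower with captopril, at -0.19 ± 0.06 (adjusted p = 0.043), a call lost when any of the 4 chips compared was left out (adjusted p of 0.081 to 0.21). The dim 1459804_at read 118 and 113 in Tg-18mo-ACEI, 1.16 and 10.5 in Tg-18mo, and 61.4 and 48.6 in Tg-12mo. Its log2 difference of 5.05 ± 0.94 with captopril (adjusted p = 0.0045) became 1.98 with 32 added (adjusted p = 3.7e-04). The size can therefore not be read from it. Only its Tg-18mo-ACEI mean reached the signal minimum, so the filter itself favoured a higher direction with captopril. Neither this direction nor these p-values are counted as support. Ep300 read 1355 and 1376 in Tg-18mo-ACEI, 1461 and 1542 in Tg-18mo, and 1227 and 1314 in Tg-12mo, with -0.14 ± 0.06 with captopril (adjusted p = 0.13).

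Nipbl loads cohesin, the ring that shapes chromatin loops, onto DNA. Its brightest probe set, 1430309_at, read 1364 and 1407 in Tg-18mo-ACEI, 537 and 506 in Tg-18mo, and 919 and 1127 in Tg-12mo. The groups did not overlap. Captopril gave 1.41 ± 0.10 (adjusted p = 2.8e-05, 2.66-fold), and Tg-18mo minus Tg-12mo gave -0.97 ± 0.10 (adjusted p = 1.1e-04). The other 3 Nipbl probe sets did not pass with captopril, with log2 differences of 0.02 to 0.17. On 1453576_at the signals were 459 and 490 in Tg-18mo-ACEI, 442 and 494 in Tg-18mo, and 333 and 330 in Tg-12mo, higher at 18 than at 12 months by 0.49 ± 0.10 (adjusted p = 0.0044).

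Ankrd11 is a nuclear cofactor that binds histone deacetylases and is mutated in a human developmental syndrome. It was measured by 5 probe sets, of which 3 were higher and 1 lower with captopril. On 1456110_at it read 941 and 806 in Tg-18mo-ACEI, 154 and 56.1 in Tg-18mo, and 322 and 311 in Tg-12mo, with 3.23 ± 0.38 with captopril (adjusted p = 4.4e-04), or 2.50 without chip 2 and 3.96 without chip 1 of Tg-18mo. The 2 Tg-18mo chips differed widely here, yet both lay below all others. On 1437633_at it read 1276 and 1160 in Tg-18mo-ACEI, 508 and 568 in Tg-18mo, and 958 and 928 in Tg-12mo, with 1.18 ± 0.08 (adjusted p = 3.0e-05). The brightest, 1435778_at, had 3147 and 3337 in Tg-18mo-ACEI, 2708 and 2885 in Tg-18mo and 2511 and 2641 in Tg-12mo (0.21 ± 0.06, adjusted p = 0.022, and 0.13 without chip 2 of Tg-18mo-ACEI or chip 1 of Tg-18mo). The lower one, 1460020_at, had 155 and 165 in Tg-18mo-ACEI, 209 and 228 in Tg-18mo and 214 and 207 in Tg-12mo (-0.45 ± 0.15, adjusted p = 0.046), a call lost when any of the 4 chips compared was left out (adjusted p of 0.11 to 0.22).

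Probe sets of the same gene share its transcripts and are not replicates. Of the 36 genes with at least 2 kept probe sets, 6 were higher with captopril on all of them (Arid4a, Chd4, Kmt2c, Kmt2e, Smarca2 and Suz12), 16 on some, 11 passed on none, and Ankrd11 and Crebbp had calls in both directions. Of the 28 genes with 1 probe set, 5 were higher (Arid1b, Chd9, Eed, Kdm5d and Setd7) and 6 lower (Chd3, Chd5, Chd8, Kdm4a, Kmt2b and Setd3). At 18 against 12 months, 4 genes were higher on all probe sets (Arid1a, Kdm2a, Kmt2a and Kmt5a), 2 were lower on all (Arid4a and Suz12), and 7 had calls in both directions (Arid2, Chd4, Crebbp, Kdm5b, Nipbl, Setd5 and Smarca4). In Tg-18mo-ACEI against Tg-12mo, 7 were higher on all (Arid1a, Chd2, Chd4, Kdm2b, Kdm5b, Smarca4 and Suz12), and Setd5 had both directions. Here the calls on Chd2 1445843_at, Kdm5b 1427142_s_at and Chd4 1438476_a_at were lost with no filter on low signals and with no intensity trend. So was the higher call on Chd4 1451295_a_at at 18 against 12 months. Shares over all genes with several probe sets are not given here.

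**Figure D4:**
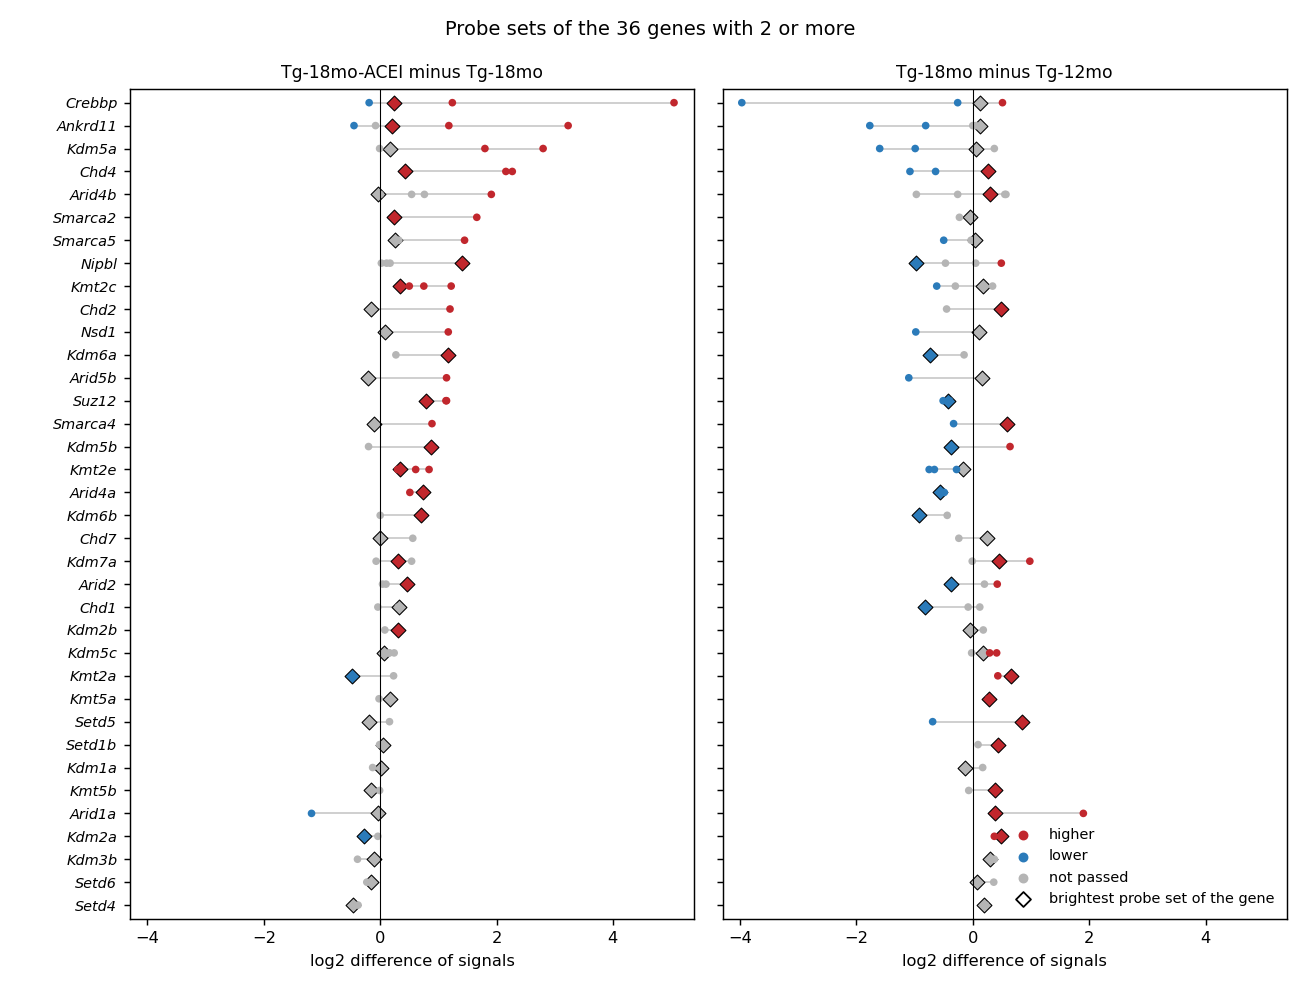
Each row is 1 of the 36 genes with at least 2 kept probe sets, and each point a probe set at its log2 difference of signals, with captopril (left) and for Tg-18mo minus Tg-12mo (right); diamonds mark the brightest probe set, and red, blue and grey stand for higher, lower and not passed. For Crebbp, Ankrd11, Kdm5a, Chd4 and Smarca2 the brightest probe set lies near 0 on the left while others lie far to the right.

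The disagreement within genes was tested directly, on the log2 ratio of each of the other 60 probe sets to the brightest of its gene, fitted with limma over 8797 such ratios on the chips. With captopril the ratio was higher for 17 and lower for 7 of the 60 (28.3% and 11.7%), against 12.5% and 6.59% of all ratios. At 18 against 12 months it was higher for 11 and lower for 19 (18.3% and 31.7%), against 20.9% and 14.2%. In Tg-18mo-ACEI against Tg-12mo it was higher for 10 and lower for 4 (16.7% and 6.67%), against 17.6% and 6.09%, close to the background. With all chips in the fit, the probe sets other than the brightest thus passed this test more often than all ratios in the first comparison. In the second they did so for lower ratios. The ratio rose with captopril by 1.74 for Chd4 (1436343_at, adjusted p = 0.0019), 1.64 for Kdm5a (1452360_a_at, adjusted p = 0.0026), 1.43 for Smarca2 (1452333_at, adjusted p = 0.0053) and 1.02 for Crebbp (1436983_at, adjusted p = 0.0072), on the log2 scale. The log2 difference of the ratio was -1.15 for Arid1a (1417440_at, adjusted p = 0.0031) and -1.39 for Nipbl (1453576_at, adjusted p = 0.0045). These counts depended on single chips. Shares over all ratios without a chip are not given here, so whether a surplus remains in those fits cannot be read. With captopril 7 were higher without either Tg-18mo-ACEI chip, and 2 or 3 lower without any 1 of the 4 chips compared. At 18 against 12 months, 2 were higher without chip 2 of Tg-18mo, 4 without chip 1 of Tg-18mo and 6 without chip 2 of Tg-12mo, and the lower ones numbered 9 to 13 with any chip left out. In Tg-18mo-ACEI against Tg-12mo, the counts were 0 higher and 0 lower without either Tg-18mo-ACEI chip, and at most 8 and 2 without another. Where in each transcript the probe sets lie was not analysed here, and the part of the β-actin 3′/5′ ratio, which differed between the same groups, was not tested.

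Chromatin genes outside the naming rule were also counted. Of 127 listed partners and related enzymes, 120 were measured by their brightest probe set. With captopril 16 were higher and 22 lower (13.3% and 18.3%, median -0.03), against 12.6% and 21.7% of all genes on brightest probe sets. At 18 against 12 months 42 and 21 passed (35% and 17.5%, median 0.12), against 28% and 21% of all. In Tg-18mo-ACEI against Tg-12mo 38 and 14 passed (31.7% and 11.7%, median 0.10), against 20.1% and 20.6% of all. Whether they differ from the members was not tested. Cohesin and its regulators, the partners of Nipbl, had 5 of 12 higher and 1 lower with captopril (41.7% and 8.33%). Rad21, a ring subunit, gave 3744 and 4390 in Tg-18mo-ACEI, 3393 and 2762 in Tg-18mo and 4312 and 3598 in Tg-12mo (0.41 ± 0.12 with captopril, adjusted p = 0.032). Another ring subunit, Smc1a, gave 1761 and 1870 in Tg-18mo-ACEI, 2214 and 2274 in Tg-18mo and 1791 and 1863 in Tg-12mo (-0.31 ± 0.06, adjusted p = 0.004). Among 21 SWI/SNF accessory subunits, 3 were higher and 5 lower with captopril (14.3% and 23.8%). The paralogous core subunits Smarcc1 and Smarcc2 had opposite courses. Smarcc1 read 1470 and 1481 in Tg-18mo-ACEI, 1070 and 1084 in Tg-18mo and 2071 and 2090 in Tg-12mo (-0.95 ± 0.05 for Tg-18mo minus Tg-12mo, adjusted p = 9.9e-06). Smarcc2 read 2519 and 2490 in Tg-18mo-ACEI, 3123 and 3057 in Tg-18mo and 1746 and 1683 in Tg-12mo (0.85 ± 0.05, adjusted p = 1.2e-05). In both, the Tg-18mo-ACEI chips lay between the other groups.

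Over all genes on brightest probe sets, 12.6% were higher and 21.7% lower with captopril, and 28% and 21% at 18 against 12 months. With captopril, Polycomb repressive complex 1 subunits and cofactors of complex 2 had 2 lower of 19 (10.5%). At 18 against 12 months they had 3 higher and 2 lower (15.8% and 10.5%). Subunits shared by the KMT2 complexes had 1 lower of 8 (12.5%) with captopril (Hcfc1, -0.25 ± 0.05, adjusted p = 0.0061). At 18 against 12 months, 6 of these 8 were higher and 1 lower (75% and 12.5%). Histone deacetylases had 2 higher and 3 lower of 15 with captopril (13.3% and 20%), and NuRD and INO80 subunits 3 and 4 of 16 (18.8% and 25%). Other methyltransferases had 1 and 4 of 15 (6.67% and 26.7%), and other acetyltransferases 1 lower of 8 (12.5%). DNA methylation enzymes and readers had 2 and 1 of 7 (28.6% and 14.3%). Whether any of these lists differs from all genes was not tested.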

How the data were processed

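The authors deposited linear intensity values, 1 for each probe set on each chip, which came from GCOS per the labels and were scaled to a target value of 600 per the study's methods. Symbols came from the platform annotation, updated through the RefSeq gene table. Non-control probe sets whose mean reached 100 in any group (23262) were fitted on the log2 scale with a mean for each of the 3 groups, using limma 3.58.1 in R 4.3.3 (lmFit, then eBayes allowing for a trend with intensity), with Benjamini-Hochberg adjustment over all of them and a threshold of 0.05. The fit was tested on simulated data with planted changes. Named were all probe sets of the genes given by full name, the 10 largest changes in each direction per comparison that passed without overlap of chips, the brightest and the 4 largest changes per role, and genes with opposite calls. Other probe sets of named genes are given for comparison and were not refitted under each alternative. Partners with values were chosen from fixed lists after their values were seen. Members and lists were chosen with earlier results of these data known. Alternatives changed the added constant, filter, scaling, samples, block, prior and test. Detection calls and raw images were not used here. The number of chips limits the precision. Figures were drawn with matplotlib 3.10.9.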

Additional observations from a re-analysis of the deposited data

How the results depend on the processing

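No call at an adjusted p under 0.05 and no median changed sign in the alternatives run, while named probe sets that did not pass could change sign, such as Nipbl 1443992_at with captopril (-0.31 to 0.53 without 1 chip). Leaving out 1 chip assumes that the lone chip of its group varies like the others. Without 1 chip in turn, captopril against Tg-18mo gave 30 to 48 members higher and 6 to 14 lower, 11 to 20 and 5 to 11 genes on brightest probe sets, a median log2 difference of 0.12 to 0.18, and within-gene ratios of 7 to 18 higher and 2 to 8 lower. Tg-18mo against Tg-12mo gave 30 to 37 and 27 to 28 members, 23 to 27 and 8 to 10 genes, a median of 0.04 to 0.13, and ratios of 2 to 8 and 9 to 13. Tg-18mo-ACEI against Tg-12mo gave 45 to 58 and 1 to 3 members, 25 to 30 and 0 to 2 genes, a median of 0.25 to 0.31, and ratios of 0 to 8 and 0 to 2.

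With no intensity trend, captopril gave 7 members lower and 13 genes higher and 5 lower, and 1 gene was lower in Tg-18mo-ACEI than in Tg-12mo. With no filter the median was 0.05 for Tg-18mo minus Tg-12mo and 0.22 for Tg-18mo-ACEI minus Tg-12mo, with 1 gene lower in the last. A minimum mean of 200 gave a median of 0.13 for Tg-18mo minus Tg-12mo, and quantile normalization gave 0.02 there and 0.20 for Tg-18mo-ACEI minus Tg-12mo. With each chip divided by its median, 2 members and 1 gene were lower in Tg-18mo-ACEI than in Tg-12mo. The cause of these shifts was not tested.

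The methods' t-test after Benjamini-Hochberg adjustment made few calls. With captopril it left 2 members higher and 0 lower, and 0 and 0 genes, on linear and on log2 signals. At an unadjusted p under 0.05 it gave 42 and 15 members and 14 and 12 genes on linear signals, where limma gave 50 and 16 members and 23 and 13 genes. For Tg-18mo against Tg-12mo it left 4 and 2 members and 3 and 1 genes on linear signals, and 3 and 2 members and 2 and 1 genes on log2 signals. For Tg-18mo-ACEI against Tg-12mo it left 2 and 0 members and 2 and 0 genes on linear signals, and 0 and 0 of both on log2 signals, with 50 and 4 members and 25 and 1 genes unadjusted, where limma gave 68 and 5 members and 36 and 2 genes. At the study's thresholds limma left 19 and 1 members and 2 and 0 genes with captopril, 3 and 2 members and 2 and 0 genes for Tg-18mo against Tg-12mo, and 6 and 0 members and 1 and 0 genes for Tg-18mo-ACEI against Tg-12mo. The methods' t-test at those thresholds left 12 and 1, 2 and 0, and 3 and 0 members in the same order. This last setting, the within-gene ratio and the count over all 185 probe sets were added after seeing the data.

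Chips with the same replicate number did not deviate together (correlations of -0.03, 0.0344 and -0.0519 for the 3 comparisons), so they share only a number. With the replicate block, 43 members were higher and 9 lower with captopril, 37 and 28 for Tg-18mo against Tg-12mo, and 53 and 3 for Tg-18mo-ACEI against Tg-12mo. With 2 chips a group, differences near the spread between chips cannot be told from it, and dim probe sets had the widest errors.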
